A study of Mus musculus with 42 samples.

Results

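Peaks of SOX2, β-catenin and LEF1 were examined at 6 genes of retinoic acid signalling: Aldh1a2, Crabp2, Rara, Rarb, Rarg and Cyp26a1. The genes were taken as a list of names out of 21938 protein-coding genes, and every peak that overlapped a gene body extended by 10 kb on both sides (mm10) was assigned to the gene. All 6 genes were found in the annotation. The 30 peak lists placed 22 to 286 peaks in the 6 windows together (median 68), and 4 to 21 (median 15) when only the 20000 best peaks of each list were kept.

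The chromatin came from mouse HM1 embryonic stem cells (129 strain). They were differentiated with bFGF and LGK974, a blocker of WNT secretion, and collected at 72 h. CHIR99021 (CHIR), a GSK3 inhibitor that switches on WNT signalling downstream of the receptor, was added for the last day or left out (noCHIR). The study names the cells without CHIR epiblast-like cells and those with CHIR caudal epiblast-like cells, in which it reports reduced SOX2 expression. Comparing noCHIR with CHIR thus compares cell states as well as treatments. Each of the 3 factors was measured in 3 libraries of wild-type cells (WT), of cells mutant for Cdx1, Cdx2 and Cdx4 (CdxKO) and of T/Bra-/- cells (T/BraKO), all with CHIR, and SOX2 was also measured in 3 WT noCHIR libraries. This made 10 groups of 3 biological replicates. All 30 libraries carry the same experiment label and are labelled as biological replicates. The WT control was the HM1 TetON line from which the study derived its other lines, and each genotype stood for a line, so genotype and line cannot be told apart. The series held 42 samples, and the 12 input samples were not analysed here. Expression was not analysed here, so the labelled cell type was not checked against marker genes.

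Retinoic acid is made from vitamin A in steps, the last of which is catalysed by ALDH1A2, and it is broken down by CYP26 enzymes such as CYP26A1. CRABP2 binds retinoic acid in the cytoplasm and passes it to the nuclear receptors RARA, RARB and RARG. These pair with RXR receptors on DNA elements that hold a direct repeat, often with a gap of 5 bases (DR5). In the embryo ALDH1A2 in the trunk mesoderm and CYP26A1 in the tail bud set where the signal is present along the body axis, and Cyp26a1 and Rarb are themselves classical target genes of the receptors. Of the 3 factors measured, SOX2 acts in stem cells and the neural lineage, while β-catenin carries the WNT signal to DNA through partners such as LEF1.

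Peaks of a list were ranked by the deposited −log10 q, so that rank 1 was the strongest peak, and the value of a gene in a library was the rank of the best peak in its window. A gene without a peak received the length of the list plus 1. The lists ran from 26940 peaks (SOX2 T/BraKO replicate 3) to 1008922 peaks (SOX2 WT CHIR replicate 1). Peak 20000 had a −log10 q of 3.26 in the former and 14.1 in the latter, so the same rank did not mean the same evidence in every library, and a long window has more chances to hold a good peak. The windows measured 23.7 kb for Cyp26a1, 24.7 kb for Crabp2, 42.6 kb for Rarg, 67.1 kb for Rara, 100.5 kb for Aldh1a2 and 408.3 kb for Rarb. Windows of 5 members also held part of other protein-coding genes, which were Cyp26c1 for Cyp26a1, Isg20l2 for Crabp2, Itgb7 for Rarg, Cdc6 and Gjd3 for Rara and Top2b for Rarb, and a peak there counted for the member.

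Pooled over the 3 factors, the receptor genes Rarg and Rara had the best median and Cyp26a1 the worst, but the order was not the same for each factor. For LEF1 the median percentile was 8.36 for Rara, 15.7 for Rarb, 36.3 for Aldh1a2, 37.1 for Cyp26a1, 39.9 for Rarg and 44.4 for Crabp2. As a percentile among all protein-coding genes of a library, where a low value is a good rank, the median over the 30 libraries was 2.76 for Rarg, 3.05 for Rara, 14.9 for Crabp2, 20.0 for Rarb, 21.6 for Aldh1a2 and 55.2 for Cyp26a1. The ranges over libraries overlapped between all neighbours in that order, and for Rarg the range reached from 0.70 to 80.8. A peak among the 20000 best was present in 30 of 30 libraries for Rara, in 25 for Rarb and for Rarg, in 24 for Aldh1a2 and for Crabp2 and in 9 for Cyp26a1. Over all genes the share of libraries with such a peak was 38.4% to 41.2%, by factor. Per length, the 20000 best peaks were 11.0 times as dense as in the genome in the Crabp2 window, 10.2 times in the Rara window, 6.40 times in the Rarg window and 2.04 times in the Aldh1a2 window (medians over 30 libraries). The same ratio was 0.668 for Rarb, which has the longest window, and 0 for Cyp26a1. In a short window few peaks make a high ratio, and 1 peak in the Crabp2 window already gave 5.515. The ratio over the windows of all protein-coding genes was not computed.

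Counts of libraries were taken for each factor, without a test between factors. SOX2 had a peak among its 20000 best at Aldh1a2, Rara, Rarg and Crabp2 in 12 of 12 libraries, at Rarb in 11 and at Cyp26a1 in 0. β-catenin had one at Rara, Rarg and Crabp2 in 9 of 9 libraries, at Aldh1a2 and Rarb in 6 and at Cyp26a1 in 4. LEF1 had one at Rara in 9 of 9 libraries, at Rarb in 8, at Aldh1a2 in 6, at Cyp26a1 in 5, at Rarg in 4 and at Crabp2 in 3. Over all protein-coding genes, such a peak was present in 41.2% of gene and library pairs of SOX2, in 38.4% of those of β-catenin and in 38.9% of those of LEF1, and the LEF1 counts at Rarg and Crabp2 and the β-catenin count at Cyp26a1 are near these shares. At Rarg the best peak had a median rank of 435 in the SOX2 libraries, 1078 in those of β-catenin and 20220 in those of LEF1. The widest spread within a group was that of LEF1 at Crabp2 in WT, with a standard deviation of log10 rank of 0.927 (n = 3).

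**Figure D1:**
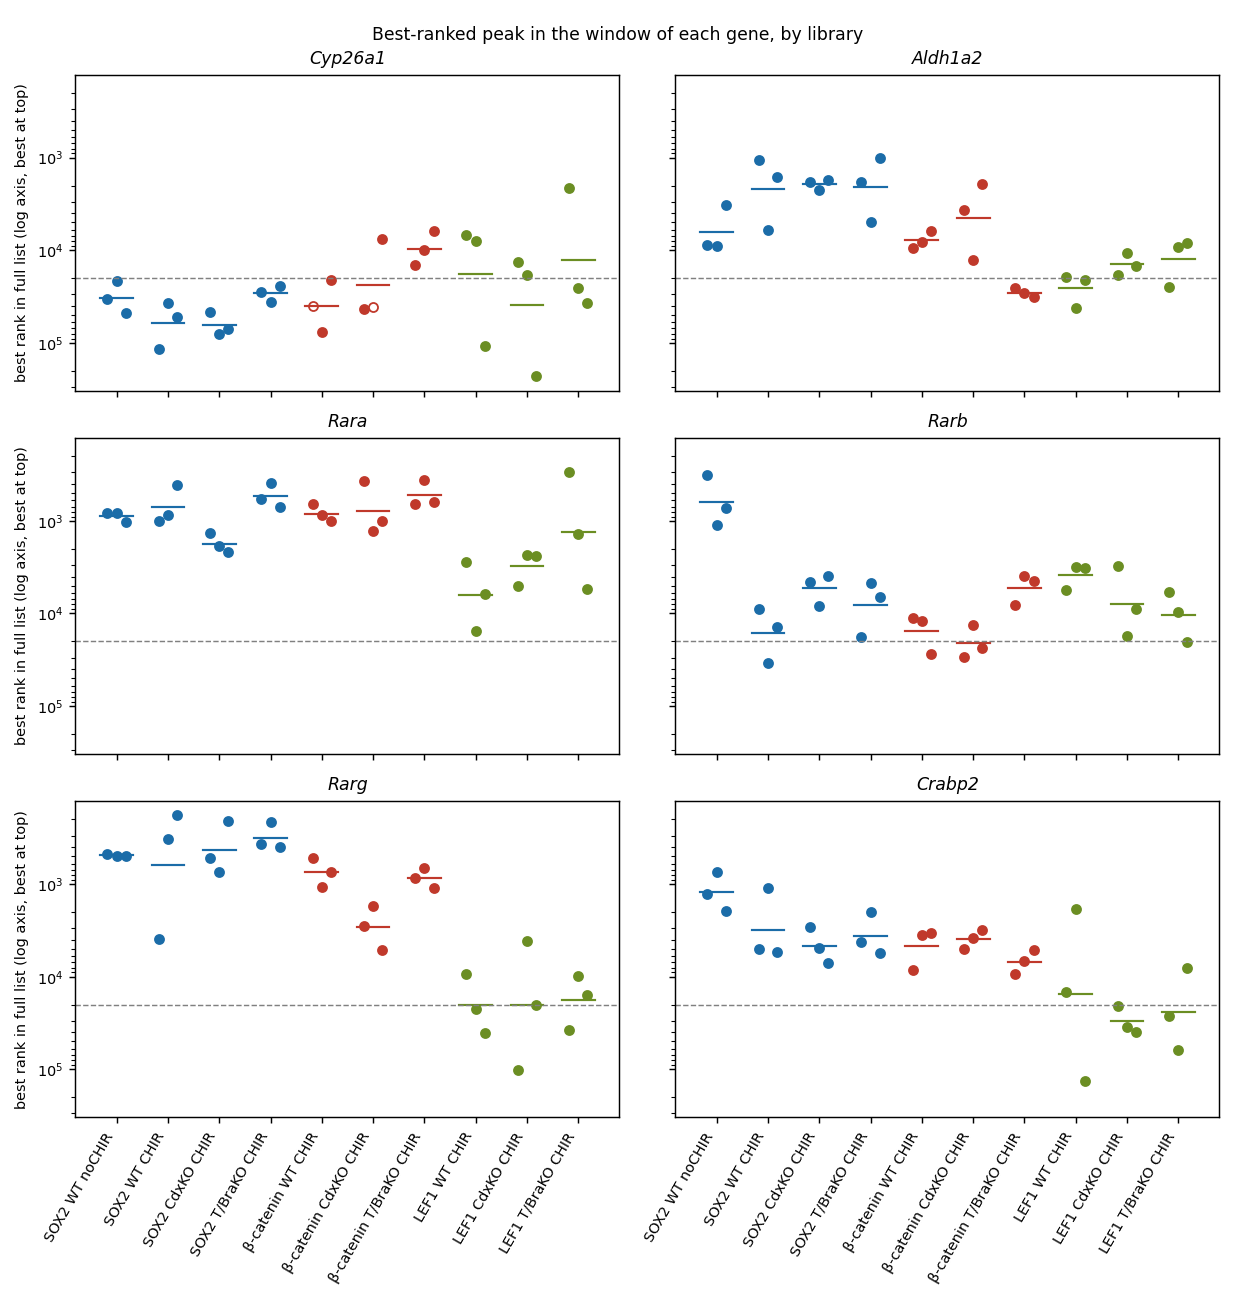
Rank of the best peak in the window of each gene (vertical log axis, best rank at the top) in each of the 30 libraries, by factor, genotype and treatment. Points are libraries, bars are geometric means of 3 libraries, open circles are libraries without a peak in the window (plotted at list length plus 1), and the dashed line is rank 20000. Rarb stands out in the SOX2 noCHIR libraries, with ranks between 317 and 1108.

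Counted by group, at least 2 of 3 libraries had a peak among the 20000 best at 5 of 6 members in each of the 4 SOX2 groups, where Cyp26a1 was the member without one. The share of all protein-coding genes that met this rule was 37.8% in WT noCHIR, 39.4% in WT CHIR, 40.4% in CdxKO and 38.7% in T/BraKO. For β-catenin the rule was met by 5 members in WT (all genes 36.5%), by 4 in CdxKO (35.1%) and by 5 in T/BraKO (34.6%). The β-catenin groups differed in the member left out. WT lacked Cyp26a1, CdxKO lacked Cyp26a1 and Rarb, and T/BraKO lacked Aldh1a2. For LEF1 the count was 4 in WT (36.2%), 4 in CdxKO (35.3%) and 4 in T/BraKO (34.6%), with Rara and Rarb in all 3 groups. In the full lists all 6 members met the rule in all 10 groups, but so did 72.5% to 97.5% of all genes, so the full lists separate genes only through rank.

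Group differences were tested gene by gene in 7 comparisons, as the difference in mean log10 best rank, with a two-sided exact permutation test over all 21938 genes. With 3 against 3 libraries the exact p cannot fall below 0.1, and after Benjamini-Hochberg adjustment no gene came below 0.474 in any comparison, so no member passed 0.05. A member was therefore described by whether the values of the 2 groups overlapped, beside the share of all genes without overlap in the same direction. SOX2 in noCHIR ranked 1 member better than in CHIR (all genes 13%) and 0 worse (8.08%). SOX2 in CdxKO ranked 1 member better than in WT (10.6%) and 1 worse (4.86%), and SOX2 in T/BraKO ranked 1 better (7.89%) and 0 worse (2.84%). β-catenin in CdxKO ranked 0 members better (3.54%) and 1 worse (5.55%), whereas β-catenin in T/BraKO ranked 3 better (5.41%) and 1 worse (4.88%). LEF1 in CdxKO ranked 1 member better (4.67%) and 0 worse (5.13%), and LEF1 in T/BraKO ranked 0 better (4.44%) and 1 worse (5.13%). With only 6 members these counts rest on 1 or 2 genes each, except for the 4 members of β-catenin in T/BraKO. The median difference of the 6 members lay between -0.202 and 0.148 over the comparisons, and that of all genes between -0.086 and 0.020.

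**Figure D2:**
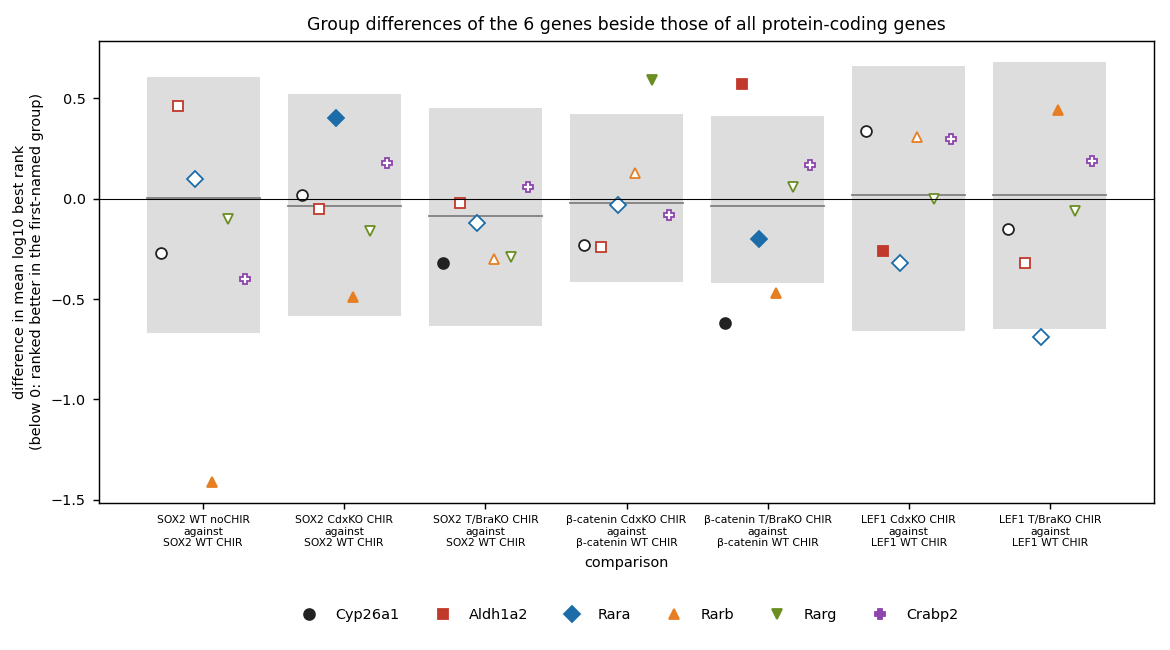
Difference in mean log10 best rank (vertical axis, below 0 means ranked better in the first-named group) of the 6 genes in the 7 comparisons of 3 against 3 libraries. Filled symbols mark genes whose group values do not overlap, grey boxes span the 5th to 95th percentile of all protein-coding genes, and grey lines are their medians. Rarb in SOX2 WT noCHIR against CHIR lies at -1.41, outside the box that begins at -0.667.

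The regions behind these ranks were formed by merging the 20000 best peaks of all 30 libraries wherever they overlapped by 1 bp. The 6 windows held 128 of 336178 regions. Of the 128, 90 were called in 1 library only, as were 83.7% of all regions, and 11 (8.6%) were called in 10 or more libraries, against 2.81% of all regions. For each member the 3 regions called in most libraries were described, together with each region that all 3 libraries of a group called and none of the group compared with it. This gave 21 regions, of which 5 had the summit within 1000 bp of an annotated transcript start. Distances are given from the annotated gene start to the summit, downstream unless stated otherwise.

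**Figure D3:**
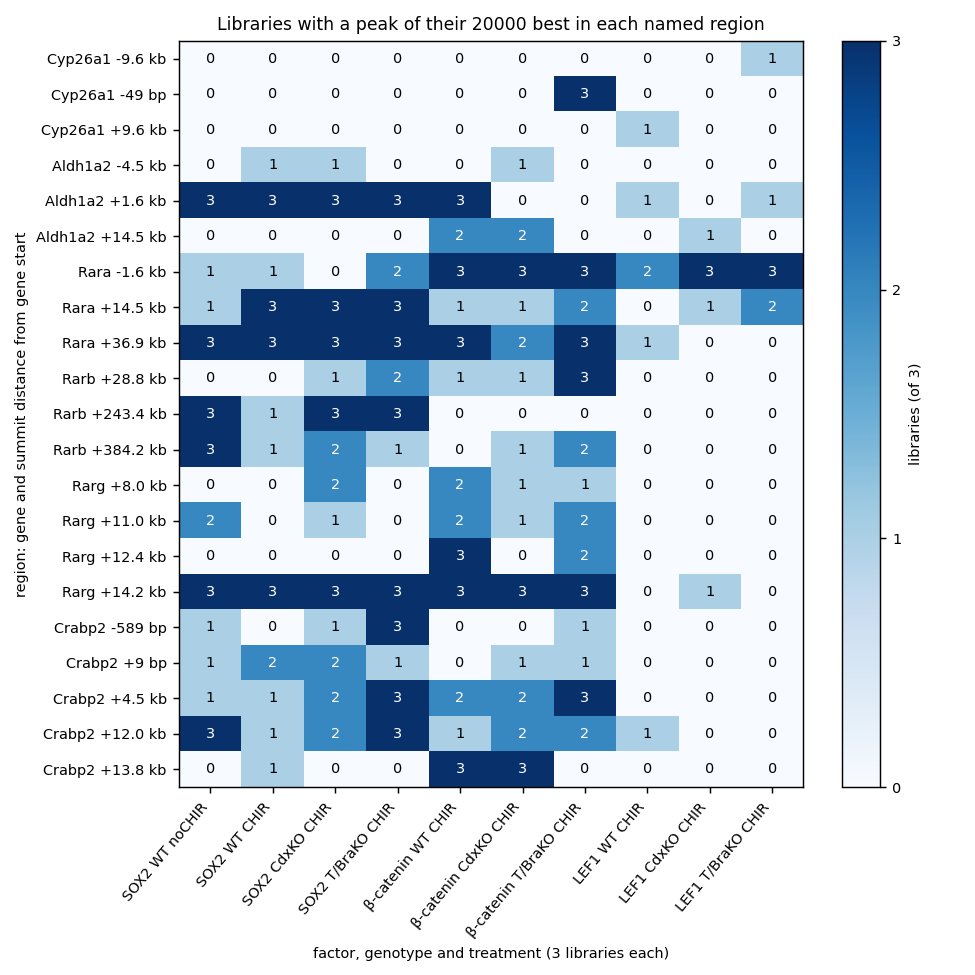
Number of libraries (of 3, in the cells and as shade) with one of their 20000 best peaks in each of 21 regions (rows, named by gene and distance of the summit from the gene start) for the 10 groups (columns). The Rarg region at 14.2 kb was called in 3 of 3 libraries of all 4 SOX2 and all 3 β-catenin groups, whereas the Cyp26a1 region at -49 bp was called in T/BraKO β-catenin libraries only.

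Sequences around the summits show what the described regions hold. Matches to 4 motif spellings were searched within 100 bp of the summit on both strands: CAATAAA or CCATAAA or TAATAAA or TCATAAA for CDX, AGGTGTGA for T-box, CCATTGT or CCTTTGT for SOX, and CTTTGAA or CTTTGAT for TCF/LEF. The SOX and TCF/LEF spellings share a stretch of 5 letters, but the same stretch cannot belong to both motifs. Among all regions 14.5%, 1.05%, 10.8% and 13.2% held a match, and among the 21 described regions 3, 0, 3 and 2 did. A match is a description of the letters and does not show binding. The following 121-base stretches are printed for the described regions outside exons that all 3 libraries of a group and none of the compared group called (Aldh1a2, Rarg at 12.4 kb and both Crabp2 regions), for the regions of the best SOX2 ranks at Rarg and Rara, and for the region of the best β-catenin ranks at Rarb in T/BraKO (mm10, plus strand). Matches are in capitals, and a stretch without capitals holds no whole match. Outside the stretch, a CDX match starts 73 bp before the summit of the upstream Crabp2 region. A TCF/LEF match starts 64 bp before the summit of the Rarg region at 12.4 kb, where the printed stretch cuts it, so it is not in capitals.
Aldh1a2 intron, chr9:71217344-71217464, CDX match: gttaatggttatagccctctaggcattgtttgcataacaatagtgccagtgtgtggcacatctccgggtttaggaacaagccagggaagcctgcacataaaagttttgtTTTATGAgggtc
Rarg intron at 12.4 kb, chr15:102245081-102245201, CDX match: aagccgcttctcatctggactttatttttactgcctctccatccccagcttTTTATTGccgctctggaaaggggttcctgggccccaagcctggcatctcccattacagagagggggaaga
Rara intron at 36.9 kb, chr11:98964673-98964793, SOX matches: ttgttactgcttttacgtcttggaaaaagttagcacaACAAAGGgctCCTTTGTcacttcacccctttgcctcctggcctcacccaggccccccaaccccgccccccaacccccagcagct
Rarb at 28.8 kb, chr14:16790310-16790430, SOX match: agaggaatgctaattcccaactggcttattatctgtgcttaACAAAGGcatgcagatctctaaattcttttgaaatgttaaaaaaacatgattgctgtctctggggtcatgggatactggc
Rarg intron at 14.2 kb, chr15:102243281-102243401: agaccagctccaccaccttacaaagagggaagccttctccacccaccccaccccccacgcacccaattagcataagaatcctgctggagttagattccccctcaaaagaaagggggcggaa
Crabp2 upstream, chr3:87948017-87948137: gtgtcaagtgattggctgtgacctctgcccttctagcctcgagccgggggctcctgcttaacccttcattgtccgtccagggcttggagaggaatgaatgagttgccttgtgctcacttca
Crabp2 downstream at 13.8 kb, chr3:87962451-87962571: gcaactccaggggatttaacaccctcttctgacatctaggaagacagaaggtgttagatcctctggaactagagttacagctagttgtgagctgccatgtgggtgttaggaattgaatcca

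Aldh1a2 encodes the enzyme that makes retinoic acid in the early embryo. Its main region lay in the first part of the gene, in an intron 1.6 kb from the gene start (chr9:71216949-71218025), and was the first sequence printed above. It was called in 17 of 30 libraries, and 0.957% of all regions were called in as many or more. All 12 SOX2 libraries called it. The fold enrichment of the SOX2 peak over background was 9.78, 8.48 and 15.7 in WT noCHIR, 17.99, 7.44 and 13.5 in WT CHIR, 15.1, 14.2 and 15.6 in CdxKO and 13.4, 10.2 and 18.6 in T/BraKO. These ranges overlapped, and the genotype test over the 9 SOX2 libraries with CHIR gave an exact p of 0.982 for the gene.

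β-catenin calls at the same Aldh1a2 region were those of WT. All 3 WT libraries called it, against 0 of 3 for each mutant. In the full WT lists the fold enrichment was 6.30, 5.61 and 10.7. One full CdxKO list held a peak there, with a fold of 3.14, and 2 full T/BraKO lists did, with folds of 4.82 and 4.94. All 3 WT values were thus above all values in the mutants. A region called in 3 of 3 WT and 0 of 3 mutant libraries was found for 0.52% of the regions of WT and CdxKO and for 0.613% of those of WT and T/BraKO. Because the regions were picked by this pattern, the calls are a description and were not tested.

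Over the whole Aldh1a2 window, the best β-catenin peak ranked 9414, 8230 and 6125 in WT and 25429, 29258 and 31993 in T/BraKO. The groups did not overlap, and the mean rank in T/BraKO was 3.69-fold worse (0.57 in log10 rank, exact p = 0.1, adjusted p = 0.956). In a window extended by 50 kb the difference was 0.138 and the groups overlapped. In CdxKO the best peak ranked 3691, 12852 and 1912 and overlapped with WT. The ranks of 3691 and 1912 were those of another intronic region 14.5 kb from the gene start (chr9:71230013-71230369). At that region the β-catenin fold was 11.4 and 17.2 in CdxKO replicates 1 and 3 and 5.52 and 8.08 in WT replicates 2 and 3, and the remaining library of each group had no peak. Over the 3 genotypes the exact p for β-catenin at Aldh1a2 was 0.0179, but the adjusted p was 0.623. For LEF1 the ranks were 19373, 42469 and 20865 in WT and 18320, 10694 and 14636 in CdxKO, which did not overlap (1.82-fold better in CdxKO, exact p = 0.1, adjusted p = 0.996). With the gene body alone these groups overlapped, and without WT replicate 2 the log10 difference fell from -0.26 to -0.151.

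Crabp2 encodes the protein that carries retinoic acid to the receptors. It had 5 described regions, with summits from 589 bp upstream to 13.8 kb downstream of the gene start. At 11979 bp from the gene start (chr3:87960321-87961210), beyond the end of the gene, the SOX2 fold enrichment was 24.8, 30.1 and 18.7 in WT noCHIR. In WT CHIR the values were 6.61, 7.66 and 4.22. They were 12.5, 10.3 and 3.33 in CdxKO and 5.75, 8.73 and 6.81 in T/BraKO. The 3 libraries without CHIR were above all 9 with CHIR at this region. The share of all regions with this pattern was not counted. By best rank, 13% of all genes were better in every noCHIR library than in every WT CHIR library. The best peak of the whole window moved less, since other Crabp2 regions took its place. It ranked 1264, 746 and 1961 in noCHIR and 5045, 1091 and 5440 in CHIR, and these overlapped (exact p = 0.3, adjusted p = 0.713).

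Some β-catenin peaks lay further downstream of Crabp2. The region at 13.8 kb (chr3:87961976-87962662) was called in all 6 libraries of WT and CdxKO and in none of the 3 of T/BraKO. Its fold was 5.81, 9.11 and 9.75 in WT and 6.52, 6.02 and 9.66 in CdxKO, and the full T/BraKO lists held no peak there. The window was not empty of β-catenin in T/BraKO. All 3 libraries called the region at 4.5 kb (chr3:87952378-87953330), in the UTR of Crabp2, with folds of 8.62, 8.23 and 8.75. In WT and in CdxKO 2 of 3 libraries each called it too. Full-list folds there were 7.06 and 15.1 in 2 WT libraries and 3.04 to 9.2 in the 3 CdxKO libraries. The best WT peak of the window, at rank 3352, lay in this region. Ranks of the best β-catenin peak were 8547, 3524 and 3352 in WT and 9366, 6740 and 5143 in T/BraKO, and they overlapped.

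In front of Crabp2, 589 bp upstream of the gene start (chr3:87947736-87948260), SOX2 peaks were called in 3 of 3 T/BraKO and 0 of 3 WT CHIR libraries, a pattern of 0.719% of the regions of these groups. The fold was 9.84, 11.4 and 6.67 in T/BraKO, 7.74, 4.06 and 5.20 in CdxKO and 3.53, 8.43 and 3.80 in noCHIR. Full WT CHIR lists held a peak in replicates 1 and 3, with folds of 3.85 and 4.08. LEF1 had a best Crabp2 peak at 14661, 1863 and 133092 in WT and overlapped with both mutants.

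Rara encodes the most widely expressed receptor of the family. It was the only member with one of the 20000 best peaks in all 30 libraries. A region 1.6 kb upstream of the gene start (chr11:98924909-98927128) was called by β-catenin in 9 of 9 libraries and by LEF1 in 8. The β-catenin fold was 23.8, 25.8 and 29.0 in WT, 41.5, 17.5 and 22.4 in CdxKO and 29.2, 34.0 and 30.3 in T/BraKO. SOX2 folds at the same region were at most 6.93. The other main region, in an intron 36.9 kb from the gene start (chr11:98964175-98965080), was called by SOX2 in 12 of 12 libraries and by β-catenin in 8 of 9, and holds a pair of SOX matches on opposite strands, printed above.

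SOX2 at Rara had worse ranks in all 3 CdxKO libraries than in WT. The ranks were 998, 870 and 407 in WT CHIR and 1341, 1874 and 2175 in CdxKO, and 584, 386 and 703 in T/BraKO. The WT and CdxKO values did not overlap (2.49-fold worse in CdxKO, 0.40 in log10 rank, exact p = 0.1, adjusted p = 0.645). All of these ranks came from the intronic region, where the fold was 17.2, 10.7 and 27.5 in WT and 16.2, 14.6 and 12.4 in CdxKO, and these fold values overlapped. With peaks ranked by fold enrichment within each list, the groups stayed apart (0.376 in log10 rank). The genotype test gave an exact p of 0.0214 and an adjusted p of 0.748. β-catenin at Rara ranked 663, 865 and 1013 in WT and 650, 359 and 618 in T/BraKO. These values did not overlap (1.59-fold better, -0.20 in log10 rank, exact p = 0.1, adjusted p = 0.956), but the difference was 0.072 with the gene body alone, which leaves out the upstream region, and -0.119 without T/BraKO replicate 2. The groups also overlapped when peaks were ranked by fold enrichment (-0.141) and on the percentile scale (-0.647 percentage points). LEF1 ranked 2750, 15395 and 6164 at Rara in WT and 298, 1397 and 5458 in T/BraKO, and these overlapped despite a 4.86-fold difference between the geometric means (exact p = 0.2, adjusted p = 0.985).

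Rarb encodes a receptor that is induced by retinoic acid itself. It had the largest difference of any member. The best SOX2 peak ranked 317, 1108 and 718 in WT noCHIR and 8892, 34636 and 14017 in WT CHIR. The groups did not overlap, and the geometric mean rank was 25.8-fold better without CHIR (632 against 16280; -1.41 in log10 rank, exact p = 0.1, adjusted p = 0.474). Of all genes, 0.4% had a difference as low or lower. The groups stayed apart under each alternative that was run, though leaving out a library could not have made them overlap.

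The 3 noCHIR ranks at Rarb were all those of 1 region, 384.2 kb from the annotated gene start at the other end of the gene (chr14:16434307-16435142), where the summit lies in the UTR of the neighbouring gene Top2b. The SOX2 fold there was 44.0, 29.3 and 28.8 in noCHIR. It was 6.54, 5.31 and 6.66 in WT CHIR and 9.94, 7.92 and 5.88 in CdxKO. In T/BraKO it was 4.73 and 10.9 in replicates 1 and 2, and replicate 3 had no peak. The lowest noCHIR value was thus above the highest of the 9 SOX2 libraries with CHIR, as at the downstream Crabp2 region. How many of all regions share this pattern was not counted. Of the LEF1 libraries, 0 of 9 called the region among their best 20000.

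**Figure D4:**
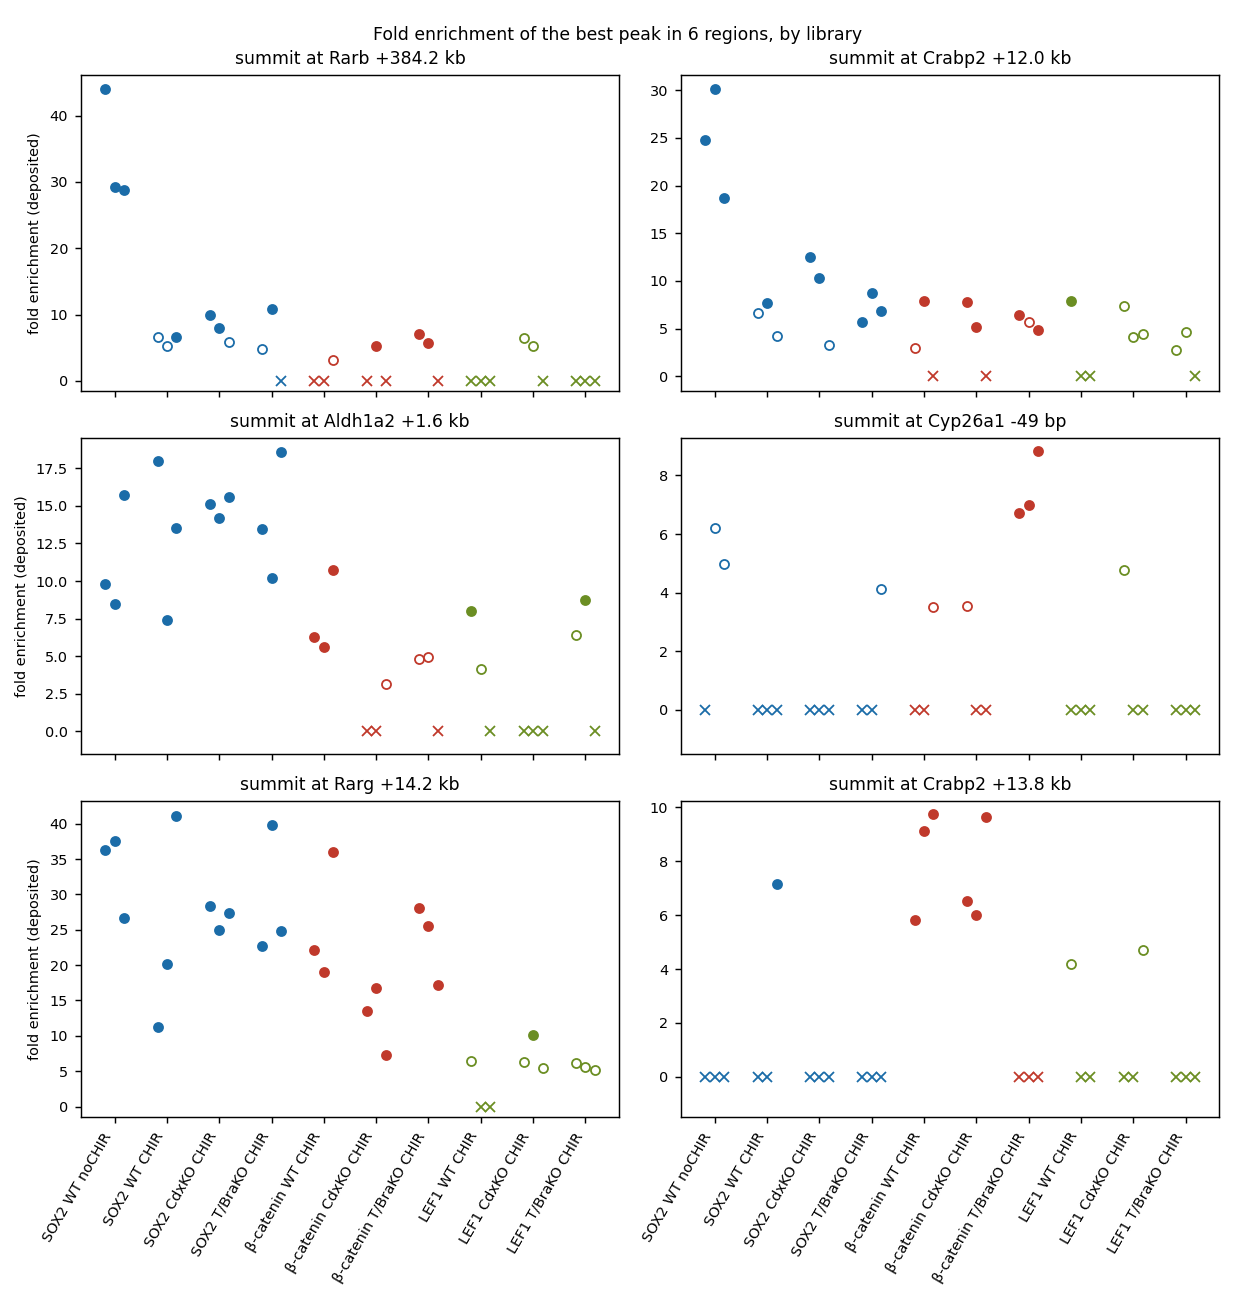
Deposited fold enrichment (vertical axis) of the best peak in 6 regions for each of the 30 libraries, grouped by factor, genotype and treatment. Filled points are peaks among the 20000 best of the library, open circles are weaker peaks, and crosses at 0 are libraries without a peak in the region. At Rarb +384.2 kb and the downstream Crabp2 region (11979 bp) the 3 SOX2 noCHIR libraries (18.7 to 44.0) lie above all libraries with CHIR. How many of all regions share this pattern was not counted.

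SOX2 at Rarb also had better ranks in the 3 CdxKO libraries than in the 3 WT CHIR libraries. The CdxKO ranks were 4606, 8297 and 3894, which did not overlap with WT CHIR (3.07-fold better, -0.49 in log10 rank, exact p = 0.1, adjusted p = 0.645). Without WT replicate 2 the difference was -0.324, and the groups overlapped when peaks were ranked by fold enrichment. The T/BraKO ranks of 17919, 4675 and 6571 overlapped with WT. At the inner promoter of Rarb, 243.4 kb from the annotated start (chr14:16575241-16576000) and 105 bp from the start of transcript Rarb-207, SOX2 was called in 3 of 3 noCHIR, 1 of 3 WT CHIR, 3 of 3 CdxKO and 3 of 3 T/BraKO libraries. The fold was 8.17, 8.39 and 7.16 in noCHIR, 10.4, 5.31 and 4.77 in WT CHIR, 8.84, 7.28 and 9.25 in CdxKO and 6.89, 10.4 and 5.80 in T/BraKO, so the levels overlapped. β-catenin and LEF1 called it in 0 of 18 libraries.

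β-catenin at Rarb had better ranks in the 3 T/BraKO libraries. Its best peak ranked 11271, 11926 and 27352 in WT and 8078, 3972 and 4512 in T/BraKO, without overlap (2.94-fold better, -0.47 in log10 rank, exact p = 0.1, adjusted p = 0.956). In a window extended by 50 kb the difference was -0.246 and the groups overlapped. The best T/BraKO peaks lay 28.8 kb from the annotated gene start (chr14:16790178-16790554), inside the annotated gene span but in no transcript of the basic set, at folds of 9.48, 11.1 and 10.7. In WT only replicate 2 had a peak there, with a fold of 6.51. For the 3 genotypes the exact p was 0.0250 and the adjusted p 0.635. LEF1 went the other way, with ranks of 5574, 3165 and 3197 in WT and 5851, 9617 and 20524 in T/BraKO (2.74-fold worse, 0.44 in log10 rank, exact p = 0.1, adjusted p = 0.985). These LEF1 peaks lay outside the described Rarb regions, where the best full-list LEF1 rank was 316895 in WT and 62542 in T/BraKO. Without T/BraKO replicate 3 the LEF1 difference was 0.291, and the groups overlapped on the percentile scale and by fold enrichment.

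Rarg encodes the receptor that is prominent in the tail region of the embryo. It held the most widely called region of all members, in an intron 14.2 kb from the gene start (chr15:102242853-102244329), which was called in 22 libraries and in 21 of 21 libraries of SOX2 and β-catenin. Of all regions, 0.378% were called in as many libraries or more. The SOX2 fold was 36.3, 37.6 and 26.7 in noCHIR and 11.3, 20.2 and 41.1 in WT CHIR, which overlapped, and it lay between 22.7 and 39.8 in the mutants. SOX2 WT CHIR replicate 1, the library with the longest list, was the lowest of all 12.

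β-catenin at Rarg had worse ranks in the 3 CdxKO libraries than in WT. The ranks were 523, 1078 and 738 in WT, 2800, 1722 and 5084 in CdxKO and 857, 676 and 1106 in T/BraKO. CdxKO did not overlap with WT (3.89-fold worse, 0.59 in log10 rank, exact p = 0.1, adjusted p = 0.982), whereas T/BraKO did. The fold at the intronic region was 22.1, 19.1 and 36.0 in WT, 13.5, 16.8 and 7.24 in CdxKO and 28.1, 25.5 and 17.2 in T/BraKO, again with CdxKO below all WT libraries. The genotype test gave an exact p of 0.0214 and an adjusted p of 0.623. A second intronic region at 12.4 kb (chr15:102244823-102245287), printed above, was called by β-catenin in 3 of 3 WT, 0 of 3 CdxKO and 2 of 3 T/BraKO libraries. Its fold was 7.59, 6.95 and 7.81 in WT and 6.46, 9.88 and 4.50 in T/BraKO, and only CdxKO replicate 3 held a peak in the full lists (5.01). The CDX match of this region starts 9 bp before the summit, and its TCF/LEF match starts 64 bp before it. In the Aldh1a2 intron the CDX match starts 49 bp after the summit. CDX matches were held by 3 of the 21 described regions and by 14.5% of all regions. A link between these matches and the β-catenin calls was not tested.

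Cyp26a1 encodes the enzyme that degrades retinoic acid. SOX2 was weak there, with best ranks of 21238 to 115723 in the 12 libraries. In T/BraKO the SOX2 ranks of 28521, 36045 and 24153 did not overlap with 115723, 37169 and 52928 in WT (-0.32 in log10 rank, exact p = 0.1, adjusted p = 0.833). All 6 values were beyond the 20000 best, the groups overlapped on the percentile scale, and without WT replicate 1 the difference was -0.182.

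β-catenin marked the Cyp26a1 promoter in T/BraKO. The best peak ranked 14435, 10040 and 6261 in T/BraKO and 77180 and 21171 in WT replicates 2 and 3, and WT replicate 1 had no peak in the window (set to 40068). The groups did not overlap (4.16-fold better, -0.62 in log10 rank, exact p = 0.1, adjusted p = 0.956). In a window extended by 50 kb they did, with a difference of -0.121. The CdxKO ranks were 43083 and 7528 in replicates 1 and 3, and replicate 2 had no peak (set to 40631). All 3 T/BraKO peaks fell in one region whose summit lay 49 bp before the gene start (chr19:37697519-37698005), at folds of 6.73, 7.0 and 8.84. The full lists held a peak there in 1 WT library at a fold of 3.51 and in 1 CdxKO library at 3.56. A region called in 3 of 3 T/BraKO and 0 of 3 WT libraries of β-catenin was found for 0.827% of their regions. LEF1 ranks at Cyp26a1 ran from 2133 to 230277 and overlapped between genotypes. The window of Cyp26c1, another gene of the same enzyme family beside Cyp26a1, shares these peaks, and its β-catenin ranks in T/BraKO were the same.

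The 3 genotypes were also compared at once, over the 280 partitions of the 9 CHIR libraries of a factor, where the exact p can fall to 0.00357. At an unadjusted exact p of 0.05 the SOX2 test called Rara, the β-catenin test called Aldh1a2, Rarb and Rarg, and the LEF1 test called 0 members. The shares of all genes called were 6.33%, 6.82% and 5.05%. After Benjamini-Hochberg adjustment 0 genes were called for each factor, and the lowest adjusted p of a member was 0.623.

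Matches to the DR5 type of receptor element were then located by sequence in the member windows and set beside the peaks. The 6 windows, 666.9 kb together, held 7 matches (10.5 per Mb, against 3.41 per Mb in the genome), of which 3 lay under a region of the 20000 best peaks, each called in at least 3 libraries. Of the 9284 matches in the genome 1.13% did, and the share among matches in the windows of other genes was not counted. All 3 are shown as 30-base sites in the direction of the gene, with the repeat in capitals (mm10). They are matches of letters, and binding of a receptor was not measured. At Cyp26a1 the repeat reads on the strand opposite to the gene. The Cyp26a1 and Rarb sites lie in the RefSeq promoters, 32 and 53 bp upstream of the RefSeq start counted to the first base of the match; 0.1% of 32851 RefSeq promoters (250 bases before to 50 after the start, GRCm38.p6) hold such a match. Promoters of 5 of the 6 members were in that table.
Cyp26a1 promoter, chr19:37697770-37697799: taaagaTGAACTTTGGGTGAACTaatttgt
Rarb inner promoter, chr14:16575507-16575536, minus strand: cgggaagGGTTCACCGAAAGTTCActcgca
Rara intron, chr11:98960002-98960031: caggcgAGTTCAGCAAGAGTTCAgccgaat

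The factors that called the merged regions over the 3 sites differed. The region over the Cyp26a1 site was that called by β-catenin in 3 of 3 T/BraKO libraries, and the match started 27 bp after the summit. The region over the Rarb site was the one called by SOX2 in 10 of 12 libraries, with both missing calls in WT CHIR. The region over the Rara site (chr11:98959118-98960064) was called in 11 libraries, 4 of SOX2, 5 of β-catenin and 2 of LEF1, without a group at 3 of 3. Full-list peaks overlapped the bases of the match itself in 5, 6 and 3 libraries. At Cyp26a1 these were 3 β-catenin T/BraKO libraries, 1 of β-catenin CdxKO and 1 of SOX2 noCHIR. At Rarb they were 1 library each of SOX2 noCHIR, SOX2 CdxKO, SOX2 T/BraKO, β-catenin CdxKO, β-catenin T/BraKO and LEF1 CdxKO. At Rara they were 1 each of SOX2 T/BraKO, β-catenin WT and LEF1 T/BraKO. None of the peaks were of a retinoic acid receptor, so the overlap is one of position only.

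The wider pathway was described by further genes, listed by role: Rdh10, Aldh1a1, Aldh1a3 and Dhrs3 of synthesis and its reversal, Cyp26b1 and Cyp26c1 of breakdown, Crabp1, Rbp4 and Stra6 of binding and uptake, the partner receptors Rxra, Rxrb and Rxrg, the corepressor Ncor1, and the target genes Stra8, Nr2f1 and Nr2f2. Without overlap between groups, SOX2 in noCHIR ranked none of these better and 2 worse (Rxrg and Stra8). SOX2 in CdxKO ranked none apart from WT, and SOX2 in T/BraKO ranked Cyp26c1 better. β-catenin ranked Nr2f1 worse in CdxKO. In T/BraKO β-catenin ranked Cyp26c1, Rxrg and Nr2f2 better (all genes 5.41%) and Nr2f1 worse (4.88%). The β-catenin ranks of Cyp26c1 in T/BraKO were those of the Cyp26a1 promoter peaks and are not a separate observation. Its SOX2 ranks in T/BraKO were those of Cyp26a1 in replicates 1 and 3 (28521 and 24153). In replicate 2 they differed (25337 for Cyp26c1 and 36045 for Cyp26a1). LEF1 ranked none apart in CdxKO, and Rxrb and Nr2f1 better in T/BraKO. For the other comparisons the shares of all genes are those given beside the member counts above. No adjusted p was below 0.474.

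Stra8, a gene that retinoic acid induces in germ cells, had SOX2 ranks of 72318, 81240 and 52742 in noCHIR and 17165, 30327 and 10645 in CHIR. This was the opposite direction to Rarb in the same libraries, at 3.82-fold between geometric mean ranks (exact p = 0.1, adjusted p = 0.474), and all 3 noCHIR values were beyond the 20000 best. Rxrg, which encodes a partner of the receptors, had β-catenin ranks of 37750, 17338 and 33573 in WT and 14707, 3911 and 7270 in T/BraKO (3.75-fold better, exact p = 0.1, adjusted p = 0.956). The other differences among these genes were 2.30-fold to 3.41-fold.

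Genes whose percentile followed that of a member most closely over the 30 libraries were found by Spearman correlation. They were Atp10a, Zbtb40 and Sgcz for Rarg (0.89, 0.88 and 0.86), Sult2a3, Lrrc74a and Nes for Aldh1a2 (0.85, 0.81 and 0.79), Adgb, Trim16 and Lifr for Rarb (0.80, 0.75 and 0.73), Nrip1, Uba1y and Il10rb for Rara (0.76, 0.76 and 0.74), Prss33, Slc10a2 and Sec31b for Crabp2 (0.73, 0.72 and 0.72) and Cks1brt, Ankrd29 and Kank4 for Cyp26a1 (0.67, 0.66 and 0.66). The 30 points share libraries and fall into 3 factors, so these values describe a likeness of pattern only. Between members the highest values were 0.53 for Aldh1a2 with Rarg and 0.49 for Crabp2 with Rarg, and the lowest was -0.38 for Aldh1a2 with Cyp26a1.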

How the data were processed

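ChIP-seq peak lists of 30 immunoprecipitation samples were used; 12 input samples were not analysed here. Per the study's methods the authors trimmed, aligned with BWA and filtered single-end reads in the nf-core/chipseq pipeline and called narrow peaks per library, and the submitters' processing notes name MACS2 and mm10. Which input served as control is not given in the sources used here. In the deposited lists the authors give a fold enrichment (a ratio) at the summit, −log10 p and −log10 q of each peak, and the summit position; the deposited integer score was not used. The −log10 q set the ranks, with ties broken by −log10 p and then fold enrichment. Read depth is not in these lists, so it is unknown, and only list length (26940 to 1008922 peaks) was available.

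Genes were the 21938 protein-coding genes of GENCODE M21 (GRCm38), whose chromosome lengths hold all peak ends. Values were log10 ranks of the best peak within 10 kb of the gene body. Groups from the labels were compared with a two-sided exact permutation test (smallest p 0.1 for 3 against 3) and an exact test over 280 partitions (smallest p 0.00357), with Benjamini-Hochberg adjustment over all genes. P-values measure the spread between these libraries. The code was tested on simulated data. The 6 genes, the pathway list and the tests were chosen with earlier results of these data known. Some genes of the pathway list are not reported here. Named were the 6 members, pathway genes without overlap between groups or with a window overlapping that of a member, the 3 genes most alike each member, and for each member the 3 most often called regions plus regions called in 3 of 3 against 0 of 3 libraries. Alternatives were the 20000 and 5000 best peaks, the gene body alone or with 50 kb, ranking by fold enrichment, percentiles, the replicate number as a block, and leaving out each library. Same-numbered libraries deviated together with a correlation over 0.1 in 1 of 21 pairs, so the numbers were not taken to pair them. Python 3.11.15, NumPy 2.4.6, pandas 2.3.3 and SciPy 1.17.1 were used.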

Additional observations from a re-analysis of the deposited data

Results flagged for a closer look

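At Rarb the difference between T/BraKO and WT had opposite signs for β-catenin and LEF1. Every T/BraKO library ranked better than every WT library for β-catenin (-0.47 in log10 rank, exact p = 0.1, Benjamini-Hochberg adjusted p = 0.956), and every T/BraKO library ranked worse than every WT library for LEF1 (0.44, exact p = 0.1, adjusted p = 0.985). Neither passed the test, and the difference between the factors was not tested. The best LEF1 peaks did not lie in the region at 28.8 kb that gave the T/BraKO β-catenin ranks, so the signs are those of different peaks. The separation was lost for both factors with 5000 peaks and with 50 kb, and for LEF1 also by fold enrichment and percentiles.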

How the results depend on the processing

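Of 143 alternative values for the 11 member differences without overlap, 121 kept direction and separation and 21 lost the separation. The remaining 1 changed sign (Rara, β-catenin in T/BraKO, 0.072 with the gene body alone), and the cause was not tested. Leaving out a library cannot make separated groups overlap or change the sign, so these alternatives among the 143 were kept by construction. All values that lost the separation or changed sign came from the other settings. Of 124 alternative counts other than single libraries, 94 stayed within 1.5 times. Members without overlap, for SOX2 in noCHIR 1, became 2 with the gene body alone and 2 with 50 kb. The replicate block did not count overlap. It counted members whose 3 same-numbered differences all had one sign, which is a looser rule. For SOX2 in noCHIR 4 members met it (all genes 35.8%). For SOX2 in CdxKO 2 became 1 with 5000 peaks and 1 by fold enrichment. For SOX2 in T/BraKO 1 became 0 with 20000 peaks, 5000 peaks, the gene body alone and percentiles, and 2 with 50 kb. For β-catenin 1 in CdxKO became 2 with 50 kb, and 4 in T/BraKO became 1 with 5000 peaks and 1 with 50 kb. For LEF1 in CdxKO 1 became 0 with 5000 peaks and with 50 kb, and 2 members met the replicate block rule (all genes 23.7%). For LEF1 in T/BraKO 1 became 0 with 5000 peaks, 50 kb, fold enrichment and percentiles, and 2 with the gene body alone. In that comparison 2 members met the replicate block rule (all genes 26.3%). The SOX2 genotype call (1) became 0 by fold enrichment. With 5000 peaks the members marked in at least 2 of 3 libraries were 3 in SOX2 WT CHIR, β-catenin WT and β-catenin T/BraKO and 1 in each LEF1 group, and 2 in LEF1 WT with the gene body alone.

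Leaving out each library gave 1 to 4 members for SOX2 in noCHIR (4 without WT CHIR replicate 2, 3 without noCHIR replicate 3, 2 without WT CHIR replicate 1), 2 to 3 for SOX2 in CdxKO, 1 to 2 for SOX2 in T/BraKO (2 without WT CHIR replicate 3 or T/BraKO replicate 1), 1 to 2 for β-catenin in CdxKO (2 without WT replicate 3, CdxKO replicate 1 or 2) and 4 to 5 in T/BraKO. For LEF1 it gave 1 to 3 in CdxKO (3 without WT replicate 3 or CdxKO replicate 1, 2 without WT replicate 1) and 1 to 2 in T/BraKO (2 without WT replicate 1, T/BraKO replicate 1 or 3). Genotype calls ran from 0 to 2 for SOX2 (0 without CdxKO replicate 2 or 3, 2 without WT replicate 1), 1 to 4 for β-catenin (1 without T/BraKO replicate 2 or 3) and 0 to 1 for LEF1 (1 without T/BraKO replicate 1 or 3).

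The replicate numbers gave little sign of pairing the libraries: correlations ran from -0.132 to 0.116, and 14 of 42 libraries correlated best with their own number. Low correlations of best ranks cannot exclude that same-numbered libraries shared an experiment. The replicate block, whose smallest p is 0.25, called 23.1% to 35.8% of all genes. Lists of peaks hold no reads, so depth could not be used to judge a missing peak.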
